A study of Arabidopsis thaliana with 12 samples.

Results

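Iron uptake by the *Arabidopsis thaliana* root was followed through 10 genes, 4 regulators of the Ib bHLH group (*bHLH38*, *bHLH39*, *bHLH100* and *bHLH101*), the regulator *FIT*, the transporter gene *IRT1*, the reductase gene *FRO2* and the coumarin genes *F6'H1*, *S8H* and *CYP82C4*. They were picked by gene ID from the 37336 IDs in the count data, for their known place in this pathway and with earlier results of these data known. In roots of the *pi4kß1ß2* mutant, transcripts of 7 of the 10 were higher than in WT, from 1.42-fold for *F6'H1* to 10.4-fold for *CYP82C4*, while *FIT* differed by less than its error and *bHLH101* and *S8H* were too low to pass the filter on low counts. In leaves most of these genes split the libraries into high and low ones, in a way that did not follow the genotype labels.

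A plant of this kind takes up iron by reduction. Proton pumps acidify the soil, coumarins secreted by the root mobilise and reduce ferric iron, FRO2 reduces it at the plasma membrane of epidermal cells, and IRT1 carries the ferrous ion into the cell. When iron runs short, transcription factors of the Ib bHLH group pair with FIT, and the pairs switch on *IRT1*, *FRO2* and the coumarin genes.

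The libraries came from seedlings 7 days old, grown without treatment on MS medium with 0.8% agar and 1% sucrose at 22 °C, with 16 h of light and 8 h of dark. WT plants (Col-0) were compared with the *pi4kß1ß2* double mutant, a knock-out with T-DNA insertions in both ß type phosphatidylinositol 4-kinase genes, *PI4Kß1* and *PI4Kß2*. Roots and leaves of each genotype were sequenced in 3 biological replicates, which gave 12 libraries, and for the roots each replicate was a pool of RNA from many plants. The paper describes the root libraries only, and the label of WT leaf replicate 3 gives a planting and a harvest date weeks apart where the other 11 give a growth stage.

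Depth was even, with 38116716 to 46577151 reads counted per library (median 40827311). Levels below are normalized CPM, the counts of a gene relative to the total of its library and scaled by the TMM method over the 12 libraries, and differences are log2 fold changes with their standard error (SE) from edgeR's quasi-likelihood test, called where the adjusted p was under 0.05. The root libraries followed their labels. *PI4Kß1* stood at 71.0 to 78.9 CPM in WT roots and at 47.3 to 48.5 in *pi4kß1ß2* roots, and *PI4Kß2* at 14.0 to 16.2 and 6.64 to 7.49. In leaves *PI4Kß2* was at 11.8, 4.67 and 12.1 CPM under the WT label (replicates 1 to 3) and at 11, 6.32 and 6.71 CPM under the *pi4kß1ß2* label. The library labelled WT leaf 2 and the library labelled *pi4kß1ß2* leaf 1 thus went against their labels. Both were kept as labelled, and the leaf comparisons are given with and without them. The 6 leaf markers checked (*RBCS1A*, *CAB1*, *CAB3*, *LHCB2.1*, *PSBS* and *RCA*) summed to between 45889.7 and 54341.3 CPM in leaf libraries and to between 80.5 and 316.1 in root libraries, and no marker was at 0.

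The 250 bases before the annotated start of the 4 Ib bHLH genes are shown because the 3 that rose in mutant roots and the 1 that did not belong to the same subgroup. They were read from the TAIR10.1 assembly of RefSeq on the strand of the gene, 5′ to 3′, with each CANNTG (the core of the E-box, to which bHLH proteins bind as a class) in capitals. CANNTG includes CACGTG, the G-box core, and a match on one strand is also a match on the other, so that both strands were searched. The windows are chr3:21085246-21085495 (minus strand) for *bHLH38*, chr3:21087711-21087960 (minus strand) for *bHLH39*, chr2:17199455-17199704 (minus strand) for *bHLH100* and chr5:1139634-1139883 (minus strand) for *bHLH101*.
bHLH38: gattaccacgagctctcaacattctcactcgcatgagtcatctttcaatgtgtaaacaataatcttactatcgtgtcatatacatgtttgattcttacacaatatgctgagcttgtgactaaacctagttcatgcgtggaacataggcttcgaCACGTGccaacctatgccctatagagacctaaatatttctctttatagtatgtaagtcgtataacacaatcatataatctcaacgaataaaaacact
bHLH39: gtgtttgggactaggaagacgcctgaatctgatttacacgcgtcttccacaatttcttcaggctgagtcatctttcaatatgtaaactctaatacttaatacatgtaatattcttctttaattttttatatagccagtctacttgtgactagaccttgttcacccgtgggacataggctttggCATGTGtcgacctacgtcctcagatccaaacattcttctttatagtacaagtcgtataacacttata
bHLH100: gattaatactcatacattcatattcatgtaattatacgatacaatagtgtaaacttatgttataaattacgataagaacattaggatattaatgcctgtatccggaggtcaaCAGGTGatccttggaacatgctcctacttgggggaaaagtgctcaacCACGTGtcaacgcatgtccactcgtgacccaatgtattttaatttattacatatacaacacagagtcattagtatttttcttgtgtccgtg
bHLH101: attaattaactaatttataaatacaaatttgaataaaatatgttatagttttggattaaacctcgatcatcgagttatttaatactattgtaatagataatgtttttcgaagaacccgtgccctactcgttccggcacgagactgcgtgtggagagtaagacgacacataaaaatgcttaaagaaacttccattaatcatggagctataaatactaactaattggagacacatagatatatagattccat

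CACGTG lay 97 bases before the start of *bHLH38* and 91 bases before that of *bHLH100*, counted to the first base of the motif. *bHLH39* held CATGTG at 67 bases, *bHLH100* also held CAGGTG at 138 bases, and *bHLH101* held no CANNTG. Among 27443 windows of the same length before annotated genes, 6.49% held CACGTG and 55.3% held CANNTG. Of the 10 iron uptake genes, 2 held CACGTG and 6 held CANNTG, the others being *FIT*, *F6'H1* and *S8H*. None was found in the windows of *IRT1*, *FRO2* and *CYP82C4*. A match describes these letters only.

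*bHLH38* (AT3G56970, chr3:21084035-21085245, 2 exons) and *bHLH39* (AT3G56980, chr3:21086390-21087710, 2 exons) are neighbours on the minus strand, 1144 bases apart. Their windows share a run of 16 bases (tgagtcatctttcaat), which begins 217 bases before the start of *bHLH38* and 187 before that of *bHLH39*, and a run of 14 bases (aagtcgtataacac) 44 and 19 bases before the starts. No stretch of 75 bases, the read length, in the exons of either gene occurs elsewhere in the nuclear genome, and the same held for every other member except *CYP82C4*, with 47 of 1663 stretches (2.83%).

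In roots, *bHLH38* stood at 0.607, 0.816 and 1.26 CPM in WT replicates 1 to 3, and at 5.61, 4.04 and 5.97 CPM in *pi4kß1ß2* replicates 1 to 3. The lowest mutant library was thus above the highest WT library. The log2 fold change was 2.53 ± 0.27 (SE, n = 3 per genotype, edgeR adjusted p = 0.000709). *bHLH39* was at 1.5, 1.71 and 2.63 CPM in WT roots and at 7.2, 6.29 and 9.38 CPM in mutant roots. The genotypes did not overlap here either, with a log2 fold change of 1.97 ± 0.25 (SE, edgeR adjusted p = 0.00179).

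*bHLH100* (AT2G41240, chr2:17198037-17199454), another member of the group, was at 0.260, 0.816 and 0.652 CPM in WT roots and at 4.35, 2.52 and 3.90 CPM in *pi4kß1ß2* roots. All mutant libraries were above all WT libraries, and the log2 fold change was 2.62 ± 0.38 (SE, edgeR adjusted p = 0.00325). *bHLH101* (AT5G04150, chr5:1138410-1139633) did not share this pattern: WT roots held 0.607, 0.622 and 0.316 CPM and mutant roots 0.294, 0.487 and 0.299 CPM. Its genotypes overlapped and no library reached 1 CPM. With no filter on low counts its log2 fold change was -0.51 ± 0.36 (SE, edgeR adjusted p = 0.40). Between 15 and 32 reads per root library lay behind these levels.

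*FIT* (AT2G28160, chr2:12004658-12006276), the partner of the Ib group, was at 14.8, 12.9 and 15.7 CPM in WT roots and at 12.7, 15.8 and 19.8 CPM in *pi4kß1ß2* roots. The lowest of the 6 values and the 2 highest were mutant libraries, so the genotypes overlapped. The log2 fold change of 0.16 ± 0.17 (SE) was within its error (edgeR adjusted p = 0.55), and without *pi4kß1ß2* root replicate 3 it was -0.02. Per kilobase of exon, *FIT* came after *F6'H1* among the 10 transcripts in WT roots (10.5 CPM per kb) and stood below *IRT1* in mutant roots (11.7 CPM per kb).

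*IRT1* (AT4G19690, chr4:10707344-10709015), the main iron transporter of the root epidermis, was at 10.7, 9.09 and 8.00 CPM in WT roots and at 38.6, 53.5 and 61.9 CPM in *pi4kß1ß2* roots. Every mutant library held more than 3 times the level of any WT library. The log2 fold change was 2.48 ± 0.22 (SE, 5.56-fold, edgeR adjusted p = 0.00115). *FRO2* (AT1G01580, chr1:208995-213082), the ferric chelate reductase, stood at 4.30, 4.90 and 4.46 CPM in WT roots against 15.0, 20.9 and 21.4 CPM in mutant roots. It had the smallest adjusted p of the 10 genes, with a log2 fold change of 2.07 ± 0.15 (SE, edgeR adjusted p = 0.000146).

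The coumarin genes differed from each other in level and in size of change. *F6'H1* (AT3G13610, chr3:4449259-4450811), whose enzyme makes the precursor of scopoletin, was the most abundant of the 10 transcripts, at 72.2, 60.6 and 64.8 CPM in WT roots and 83.7, 97.7 and 98.1 CPM in *pi4kß1ß2* roots. The groups did not overlap, but the change was the smallest of those called, a log2 fold change of 0.50 ± 0.09 (SE, edgeR adjusted p = 0.00528). *CYP82C4* (AT4G31940, chr4:15451988-15454224), which acts on fraxetin to give sideretin, changed most. It was at 1.35, 1.34 and 1.09 CPM in WT roots and at 7.18, 14.9 and 17.2 CPM in mutant roots, a log2 fold change of 3.39 ± 0.40 (SE, edgeR adjusted p = 0.00324).

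*S8H* (AT3G12900, chr3:4104463-4106341), whose enzyme makes fraxetin from scopoletin, was hardly detected. WT roots held 0, 1 and 0 reads and mutant roots 2, 4 and 4, which is a ratio of 9.7 of the summed counts (95% exact interval 1.38 to 421, counting error only). With no filter, edgeR gave an adjusted p of 0.11. The step between *F6'H1* and *CYP82C4* in the pathway was therefore close to the limit of what these libraries can show, while the genes before and after it were measured.

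**Figure D1:**
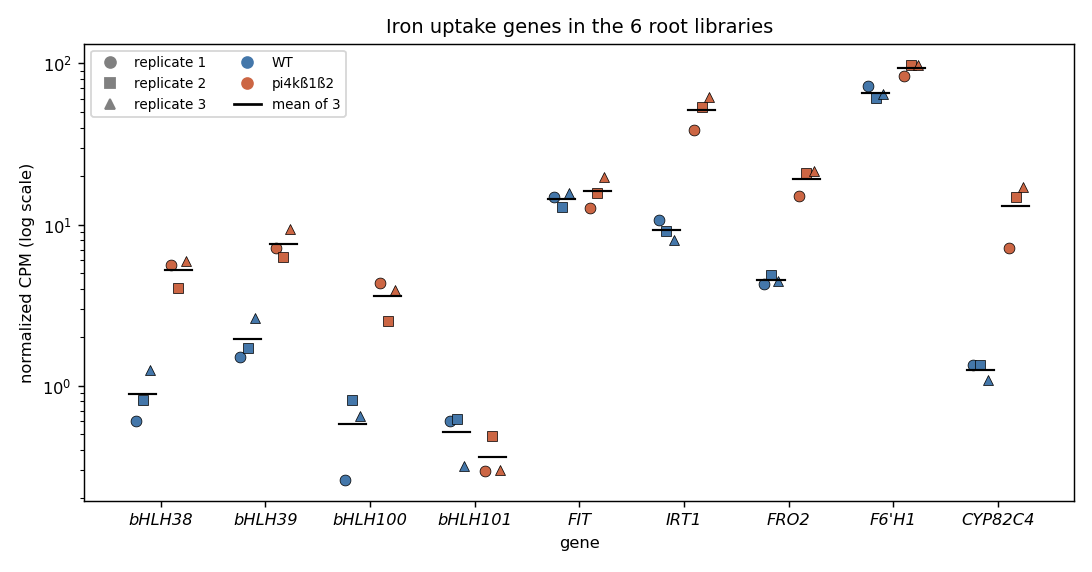
Normalized CPM (log scale) of 9 of the iron uptake genes in the 6 root libraries, with 1 point per library and a black line at the mean of 3; *S8H*, with at most 4 reads per library, is left out. For *bHLH38*, *bHLH39*, *bHLH100*, *IRT1*, *FRO2*, *F6'H1* and *CYP82C4* the 3 *pi4kß1ß2* points lie above the 3 WT points, while those of *FIT* and *bHLH101* overlap.

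Of the 8 members that could be tested in roots, 7 were called higher and 0 lower, where 11.3% of all 19694 genes tested were called higher and 15.2% lower. *bHLH38* and *bHLH100* passed the filter through the mutant libraries, since only 1 and 0 of their WT root libraries reached 1 CPM. Among the 6 members at 1 CPM or more in every WT root library, 5 were called higher. With no filter all 10 were tested and the 7 called were the same genes, against 8.36% of 27955 genes called higher. The genotypes did not overlap for 8 of the 10, *S8H* with its few reads included. Of the 19694 genes that passed the filter, which *S8H* and *bHLH101* did not, 21.1% had every mutant root library above every WT library. The median log2 fold change of the 8 members tested was 2.27, and that of all genes tested was 0.006.

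The calls rested on the fit of the 6 root libraries. In a single fit of all 12 libraries 0 of 8 members were called in roots (edgeR adjusted p from 0.0946 to 0.562 for the 7 called above and 0.799 for *FIT*), with log2 fold changes within 0.01 of those above. In the same fit without the 2 leaf libraries of doubtful label, an alternative chosen after seeing the data, 7 of 8 were called. No member lost its call when any 1 root library was left out, except that *bHLH100* fell under the filter, and so was not tested, whenever a mutant library was missing.

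The order of the transcripts, compared per kilobase of exon, changed between the genotypes. In WT roots it ran from *F6'H1* (44.8 CPM per kb) through *FIT* (10.5) and *IRT1* (5.92) to *bHLH39* and *FRO2* (1.6 each), and these first 3 steps were wider than the spread between libraries. *bHLH39* and *FRO2* overlapped. Of *bHLH38*, *CYP82C4*, *bHLH100* and *bHLH101*, at 0.828 to 0.476 CPM per kb, each overlapped the next in the order. In mutant roots *IRT1* (32.8 CPM per kb) stood above *FIT* (11.7 CPM per kb) without overlap. Of the 5 genes from *CYP82C4* (6.96 CPM per kb) to *bHLH100* (3.10 CPM per kb) each overlapped the next, while *CYP82C4*, *FRO2* and *bHLH39* lay above *bHLH100* in every library, and *bHLH101* (0.332 CPM per kb) lay apart below them.

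The mutant replicates were not ranked alike by the regulators and the enzymes. Replicate 2 was the lowest of the *pi4kß1ß2* root libraries for *bHLH38*, *bHLH39* and *bHLH100*. For *FIT*, *IRT1*, *FRO2*, *F6'H1* and *CYP82C4* replicate 1 was the lowest and replicate 3 the highest. With 3 libraries this is a description.

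Among other genes of iron nutrition, those tested and called in roots had log2 fold changes between -0.39 and 0.55. Of 9 regulators that act above or beside the Ib group, 3 were higher and 1 lower. The 3 were the E3 ligase genes that restrain the iron response, *BTS* (log2 fold change 0.17 ± 0.05 SE), *BTSL1* (0.55 ± 0.07) and *BTSL2* (0.20 ± 0.05). The lower one was *bHLH34*, an activator of the Ib genes, at -0.39 ± 0.11 (edgeR adjusted p = 0.0293). The related activators *ILR3*, *bHLH104* and *bHLH115* and the regulators *URI* and *PYE* were not called, with log2 fold changes from -0.12 to 0.12.

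The IRONMAN peptides, small signals that act above the Ib group by binding BTS, gave no call: *IMA1* was at 0.57 ± 0.28 (SE, edgeR adjusted p = 0.178) and *IMA2* at 0.35 ± 0.23 (SE, adjusted p = 0.293), and *IMA3* was under the filter, with 1, 12 and 4 reads in WT roots and 16, 19 and 18 in mutant roots (no filter, edgeR adjusted p = 0.0878). Of the other FIT partners and the MYB genes *MYB10* and *MYB72*, 4 of 6 were tested and 0 called, with 1 (*bHLH20*, -0.30) at an unadjusted p under 0.05. *MYB72* was under the filter, with 0, 1 and 0 reads in WT roots and 7, 8 and 19 in mutant roots. With no filter it was called higher (edgeR adjusted p = 0.00528), and *bHLH18* lower, at -1.22 ± 0.35 (SE, adjusted p = 0.0309). *bHLH19* varied more between replicates than between genotypes, with 15.2, 12.3 and 1.28 CPM in WT roots and 10.1, 13.0 and 1.76 CPM in mutant roots.

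Among 6 other genes of uptake and acidification, 5 were tested and 3 called higher, namely the proton pump gene *AHA2* (0.44 ± 0.09), the transporter gene *NRAMP1* (0.38 ± 0.06) and the reductase gene *FRO3* (0.39 ± 0.05). *IRT2*, the neighbour of *IRT1*, was at 0.37 ± 0.12 (SE, edgeR adjusted p = 0.0571). Of 7 other coumarin genes, the exporter gene *PDR9* (0.44 ± 0.04) and *CCoAOMT1* (0.15 ± 0.05) were higher, and the coumarin synthase gene *COSY* (0.18 ± 0.08, adjusted p = 0.115), *F6'H2*, *BGLU42*, *4CL1* and *4CL2* were not called. The vacuolar metal transporter genes *IREG2* (0.39 ± 0.10) and *MTP3* (0.38 ± 0.11) were higher, and *HMA3* was not called. *MTP8*, another vacuolar metal transporter gene, was under the filter with 10, 14 and 12 reads in WT roots and 17, 32 and 39 in mutant roots, and with no filter it was called higher (edgeR adjusted p = 0.0410). *CYP82C2*, of the same family as *CYP82C4*, was also under the filter, at 0.13, 0.0194 and 0.0593 CPM in WT roots and 0.706, 2.25 and 1.46 CPM in mutant roots. With no filter its log2 fold change was 4.4 ± 0.65 (SE, edgeR adjusted p = 0.0029). Of the 4 ferritin genes, which encode iron stores, only *FER4* was called, at -0.20 ± 0.06 (edgeR adjusted p = 0.0341).

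**Figure D2:**
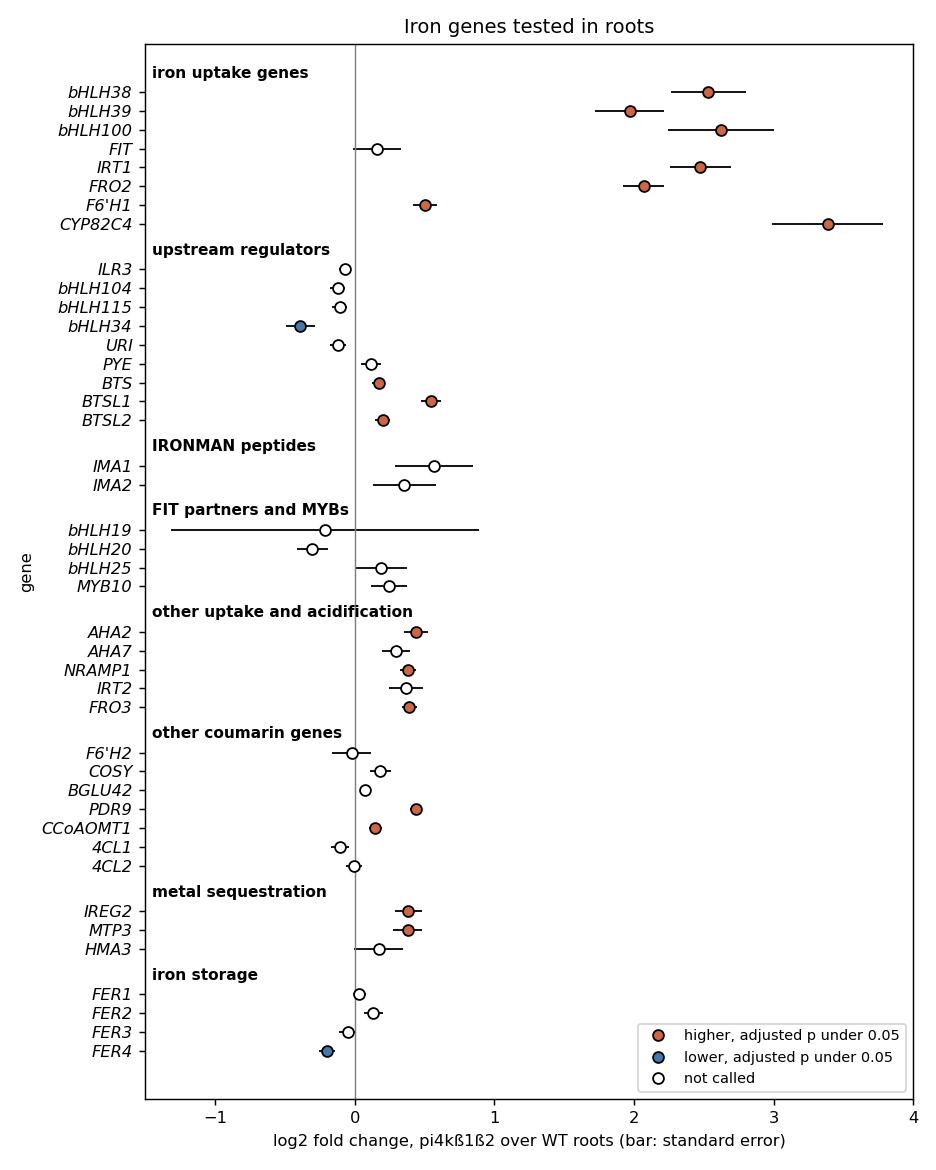
Log2 fold change in *pi4kß1ß2* over WT roots for the iron uptake genes and 7 further lists of iron genes, with the standard error as a bar, 3 libraries per genotype and filled points for an adjusted p under 0.05; genes under the filter are not drawn. Of the iron uptake genes, 6 lie at 1.97 or above, and every called gene of the other lists lies between -0.39 and 0.55.

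Some markers of root cell types moved between the genotypes too. Of 8 root hair and epidermis markers, the cells in which *IRT1* and *FRO2* are at work, 2 were higher in mutant roots (*PRP3*, 0.66, and *PIN2*, 0.57). The other 6 were not called, from -0.22 for *COBL9* to 0.25 for *EXPA18*. The summed level of the 8 was 311.3 to 354.7 CPM in WT and 390.8 to 476.0 CPM in mutant roots. This rise lay mostly in 2 genes, with mean *PRP3* at 83.8 and 132.1 CPM and mean *PIN2* at 103.8 and 153.5 CPM. The 5 endodermis markers *CASP1* to *CASP5* were all lower, at -0.48 to -1.25. Per 100 CPM of epidermis markers, *IRT1* stood at 2.26 to 3.43 in WT roots and at 9.04 to 13.7 in mutant roots, without overlap. The same ratio overlapped for *F6'H1* (18.3 to 23.2 and 19.6 to 25.0). In bulk RNA, more cells of a type and more RNA per cell cannot be told apart.

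In leaves the same genes were measured in libraries of which 2 went against their labels. *IRT1* stood at 0.558, 15.5 and 0.144 CPM in the leaf libraries labelled WT 1 to 3 and at 0.782, 14.3 and 16.2 CPM in those labelled *pi4kß1ß2* 1 to 3. The library labelled WT leaf 2 was as high as the libraries labelled *pi4kß1ß2* leaf 2 and 3, and the library labelled *pi4kß1ß2* leaf 1 was about as low as the other 2 labelled WT. *bHLH38* (0.646, 5.89 and 0.431 against 0.102, 4.87 and 5.32 CPM) and *bHLH39* (0.323, 5.92 and 0.288 against 0.306, 4.53 and 4.49 CPM) showed the same split. So did *FRO2*, with 0.823, 6.23 and 0.834 CPM under the WT label and 0.917, 6.94 and 6.34 CPM under the mutant label.

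*F6'H1* and *CYP82C4* followed it as well. *F6'H1* stood at 6.11, 26.4 and 7.73 against 9.58, 21.4 and 20.3 CPM, and *CYP82C4* at 0.294, 4.65 and 0.0288 against 0.204, 5.03 and 6.19 CPM. For *FIT* the split was narrow, with 2.35, 3.97 and 2.47 CPM under the WT label and 2.00, 5.0 and 4.24 CPM under the mutant label. *bHLH101*, which was not called between the root genotypes, was highest in the library labelled WT leaf 2 (0.823, 3.20 and 0.316 against 0.442, 1.17 and 1.33 CPM).

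*bHLH100* departed from this pattern in 1 library. It was at 0.206, 4.28 and 0.144 CPM in the leaf libraries labelled WT and at 2.21, 5.74 and 4.89 CPM in those labelled *pi4kß1ß2*. In the library labelled *pi4kß1ß2* leaf 1, in which *bHLH38* and *bHLH39* were as low as in the low libraries labelled WT or lower, *bHLH100* was thus between the high and the low libraries, with 65 reads against 7 and 5.

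**Figure D3:**
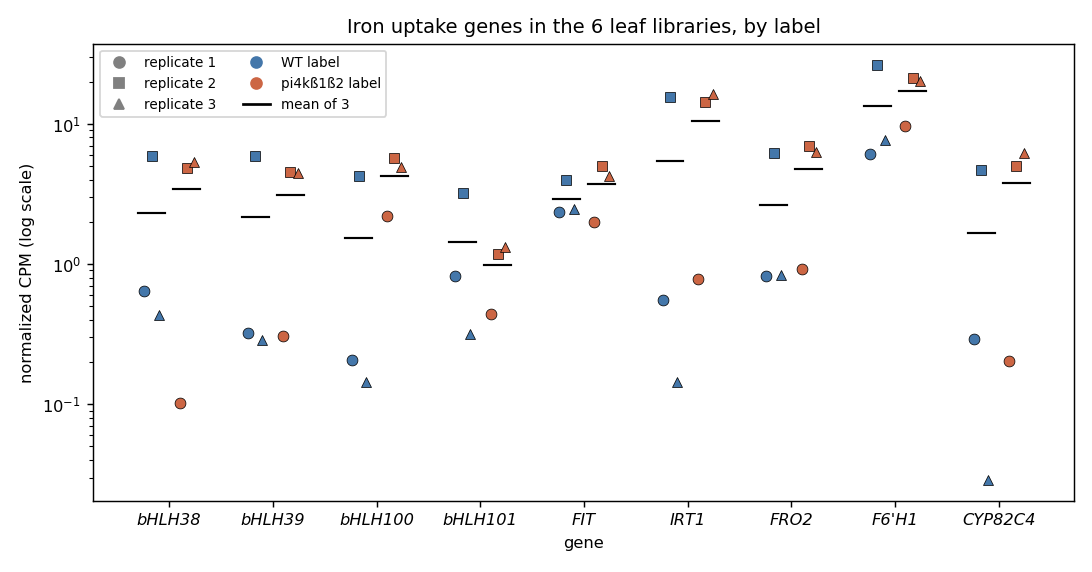
Normalized CPM (log scale) of 9 of the iron uptake genes in the 6 leaf libraries as labelled, with 1 point per library and a black line at the mean of 3; *S8H* is left out. The library labelled WT leaf 2 (blue square) lies with those labelled *pi4kß1ß2* leaf 2 and 3, and the library labelled *pi4kß1ß2* leaf 1 (orange circle) lies low except for *bHLH100*.

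As labelled, 0 of the 8 members tested in leaves were called, where 10.5% of 19470 genes were called and 3.72% were called higher. The edgeR adjusted p ran from 0.473 to 0.848, no member had an unadjusted p under 0.05, and DESeq2 and the likelihood ratio test also called 0. The log2 fold changes, from 0.32 for *F6'H1* to 1.44 for *bHLH100*, were smaller than or close to their SEs (0.39 for *FIT* to 1.61 for *IRT1*). Without the library labelled WT leaf 2 alone, 3 members could be tested and *bHLH100* was called, at 4.58 (edgeR adjusted p = 0.0211). It passed the filter only through the libraries labelled *pi4kß1ß2*, since the libraries labelled WT that were left held 0.206 and 0.144 CPM. That fit tested 19203 genes and called between 12 and 2219 of them, the range over all fits with 1 leaf library left out. All 10 members overlapped between the labels. Of the 19470 genes that passed the filter, 17.8% had every library labelled *pi4kß1ß2* above, and 19.5% below, every library labelled WT. Without the 2 libraries of doubtful label, a setting chosen after seeing the data, 9 of 10 members were higher in both libraries labelled *pi4kß1ß2* than in both labelled WT and *S8H* overlapped. Of the same 19470 genes, 36.4% were higher and 33.6% lower in this sense.

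Without both libraries of doubtful label, 2 libraries per label were left, and the comparison rests on them, WT leaf replicate 3 with its dates included. With the filter only *FIT* and *F6'H1* could be tested, and both were called higher under the mutant label, at 0.93 (adjusted p = 0.015) and 1.58 (adjusted p = 0.00125), where 13.0% of 19014 genes were called higher. With no filter, an alternative chosen after seeing the data, 8 of 10 members were called higher, against 11.4% of 26534 genes. *IRT1* was at 5.41 ± 0.39 (SE, edgeR adjusted p = 0.000702), *CYP82C4* at 5.08 ± 0.52, *bHLH100* at 4.88 ± 0.31, *bHLH39* at 3.85 ± 0.28, *bHLH38* at 3.21 ± 0.26, *FRO2* at 2.98 ± 0.21, *F6'H1* at 1.56 ± 0.13 and *FIT* at 0.91 ± 0.20. *bHLH101* (1.11 ± 0.42, adjusted p = 0.0827) and *S8H* (0.06 ± 1.2, adjusted p = 0.989) were not called. For *S8H*, all 6 leaf libraries held 5 reads under the WT label and 8 under the mutant label, a ratio of 1.71 (95% exact interval 0.494 to 6.65).

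Some genes of iron nutrition did follow the leaf labels. *FER1*, a ferritin gene, stood at 124.3, 107.1 and 148.9 CPM in the libraries labelled WT and at 616.7, 305.5 and 316.7 CPM in those labelled *pi4kß1ß2*. The labels did not overlap, and the log2 fold change was 1.68 ± 0.31 (SE, edgeR adjusted p = 0.0279). The regulator gene *URI* was also higher under the mutant label (0.53 ± 0.12, edgeR adjusted p = 0.0410), at 55.7 to 58.0 against 74.5 to 97.5 CPM. Without the 2 doubtful libraries and with no filter they were at 1.17 (adjusted p = 1.55e-05) and 0.38 (adjusted p = 0.00339). The library labelled *pi4kß1ß2* leaf 1 was the highest of all 6 for both genes. The labels of the leaf libraries were thus matched by the levels of some genes. They were not matched by those of the kinase genes and the iron uptake genes, with *bHLH100* in between in the library labelled *pi4kß1ß2* leaf 1.

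The sum of the root markers moved with the split of the leaf libraries. The 8 root hair and epidermis markers summed to 47.6, 111.3 and 60.1 CPM in the leaf libraries labelled WT and to 38.2, 70.5 and 73.7 CPM in those labelled *pi4kß1ß2*, and none was at 0. The sum was thus highest in the 3 libraries in which *IRT1* was high. Taken singly, *RHD6*, *EXPA18*, *PRP3*, *WER* and *PIN2* were also highest in these 3, while *COBL9*, *EXPA7* and *GL2* were not. Per 100 CPM of these markers, *IRT1* was at 13.9, 20.4 and 22.0 in those 3 leaf libraries, above its range in WT roots (2.26 to 3.43), and at 0.239 to 2.04 in the others. Its range in mutant roots was 9.04 to 13.7, just under the lowest of the 3. *FIT* lay between 2.98 and 7.09 per 100 CPM of the epidermis markers in all 12 libraries. In leaves its ratio did not overlap between the labels, at 3.56 to 4.94 (WT) and 5.24 to 7.09 (*pi4kß1ß2*). Nor did those of *F6'H1* (12.8 to 23.7 and 25.1 to 30.3) and *bHLH100* (0.239 to 3.84 and 5.78 to 8.14). The ratios of *IRT1*, *FRO2*, *CYP82C4*, *bHLH38* and *bHLH39* overlapped between the labels. The part of the markers in the split was not tested beyond these ratios.

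**Figure D4:**
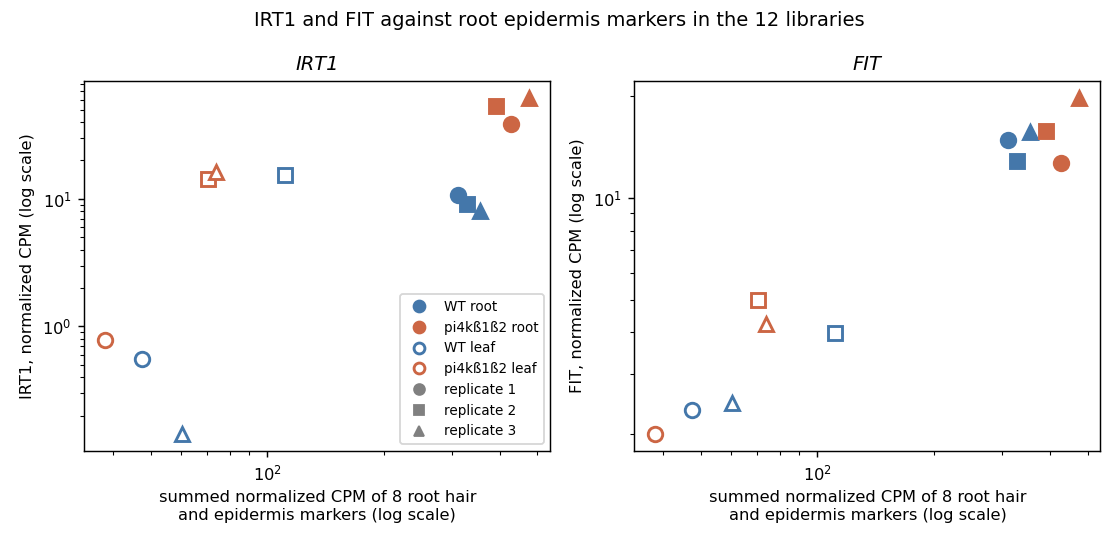
Normalized CPM of *IRT1* (left) and *FIT* (right) against the summed normalized CPM of 8 root hair and epidermis markers in the 12 libraries, both axes on a log scale, with filled points for roots and open points for leaves. *IRT1* in the 3 high leaf libraries (14.3 to 16.2 CPM) lies above its WT root values (8.00 to 10.7 CPM) and below its mutant root values (38.6 to 61.9 CPM), at a lower marker level. *FIT* and the markers are both lower in leaves than in roots, while within an organ *FIT* does not keep the order of the markers.

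Between the organs, *FIT* and *F6'H1* were higher in roots in both genotypes. In WT, 2 of the 6 members tested were called higher in roots (36.3% of 20291 genes were), namely *FIT* at 2.30 ± 0.22 (SE, edgeR adjusted p = 0.000182) and *F6'H1* at 2.29 ± 0.57 (SE, adjusted p = 0.0113). *IRT1* was not called (0.77 ± 1.31). Without the library labelled WT leaf 2, all 6 were called higher in roots, against 38.5% of genes, with *IRT1* at 4.69, *F6'H1* at 3.22, *CYP82C4* at 2.92, *bHLH39* at 2.63, *FIT* at 2.55 and *FRO2* at 2.43. Of these, *IRT1*, *CYP82C4*, *bHLH39* and *FRO2* were under 1 CPM in both WT leaf libraries left and passed the filter only through the roots. Members low in roots could not enter this fit, so the count of 6 was partly set by the filter.

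In *pi4kß1ß2*, 4 of 8 members were called higher in roots, against 39.3% of 20413 genes. They were *F6'H1* (2.44 ± 0.30), *IRT1* (2.29 ± 0.81, edgeR adjusted p = 0.0388), *FIT* (2.1 ± 0.34) and *FRO2* (2.00 ± 0.60, adjusted p = 0.0215). *bHLH100* was at -0.26 ± 0.38 and *bHLH38* at 0.59 ± 0.86, so that these regulators were not shown to be higher in either organ. Without mutant root replicate 2 or 3 only 2 were called, and *IRT1* also lost its call without mutant root replicate 1 or the library labelled mutant leaf 2 or 3 (adjusted p from 0.0517 to 0.0926). Fits between these organs with 1 library left out called 13980 to 15363 of 19497 to 19540 genes, in either direction. Without the library labelled *pi4kß1ß2* leaf 1, *bHLH39* was called as well, at 0.72 (adjusted p = 0.0133).

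The difference between the genotype effects in the 2 organs was not established. As labelled, 0 of 8 members were called in the interaction test (edgeR adjusted p from 0.366 to 0.897, no unadjusted p under 0.05, and 0 by DESeq2 and the likelihood ratio test), where 22.4% of 20765 genes were called. Without the 2 libraries of doubtful label, 5 of 8 were called, each with a smaller genotype effect in roots than in leaves, against 18.8% of genes in that direction. They were *IRT1* (-2.97), *bHLH100* (-2.29), *bHLH39* (-1.91), *F6'H1* (-1.09) and *FRO2* (-0.93). The leaf side of this comparison rests on 2 libraries per label, WT leaf replicate 3 with its dates included. WT leaf replicates 1 and 3 held few reads of some of these genes, with 19 and 5 for *IRT1*, 7 and 5 for *bHLH100* and 11 and 10 for *bHLH39*. They held 28 and 29 for *FRO2* and 208 and 269 for *F6'H1*.

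Genes outside the iron lists were ranked by how closely they followed the pathway over the 12 libraries, each centred on its organ, among 20700 genes. Closest to the mean of *bHLH38*, *bHLH39* and *bHLH100* were AT3G05390, annotated as a methyltransferase (Pearson r = 0.984), the ankyrin repeat gene AT4G10720 (0.983), the sucrose phosphatase gene *SPP1* (0.982), AT1G30760 of the berberine bridge enzyme family (0.981) and AT3G29644 (0.980). Closest to the mean of *IRT1*, *FRO2*, *F6'H1* and *CYP82C4* were *PP2-A8* and *SPP1* (0.986 each), *GSTU25* (0.983), the malate dehydrogenase gene *c-NAD-MDH3* and AT3G29644 (0.981 each). The ranking describes libraries that share preparation and, in leaves, the split above. Over the 10 libraries without the 2 of doubtful label, chosen after seeing the data, these genes had r from 0.979 to 0.983 with the regulators and from 0.982 to 0.987 with the enzymes, but 1 and 3 of each 5 were still among the 5 closest. In roots these 8 genes had log2 fold changes from 0.67 (AT3G05390) to 1.23 (*PP2-A8*).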

How the data were processed

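Stranded libraries of polyadenylated RNA were made from WT and *pi4kß1ß2* seedlings, 3 for roots and 3 for leaves of each genotype. The authors trimmed the reads, removed ribosomal sequences, aligned the rest with STAR on the TAIR10 genome and deposited raw, not normalized counts per gene, multi-hits removed. The counts of the library strand (95.0% to 96.8% of the stranded counts) were used. Reads on no gene stayed out, and 97.0% to 97.3% were counted. Intervals cover counting error only, since reads without molecular identifiers are not independent molecules.

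A gene was tested if 3 or more libraries of the fit reached 1 CPM. Library sizes were scaled by TMM, and the quasi-likelihood test of edgeR 4.0.16 (robust glmQLFit, glmQLFTest, R 4.3.3) was used, p-values being adjusted by Benjamini-Hochberg over all genes of a fit (threshold 0.05). SE is the size of the log2 fold change divided by the square root of F. The paper's likelihood ratio test, DESeq2 1.42.0, RLE normalization, no filter, both strands together, a replicate block, a fit of all 12 libraries and leaving out libraries were alternatives. On simulated root counts with 200 of 19694 genes changed 2-fold, 186 were recovered with 14 false calls. These counts were drawn from the kind of model that edgeR assumes, with far fewer genes changed than were called in roots. The leaf, organ and 12 library fits were not simulated.

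All 10 iron uptake genes are described, other iron genes as the text needs, and the 5 most similar genes for each pattern. The members and lists were chosen with earlier results of these data known. Names, coordinates and sequences came from TAIR10.1 of RefSeq, a later release than the TAIR10 of the counts, which matched 37051 of 37336 IDs. Replicates 1, 2 and 3 were not treated as pairs. P-values measure the spread between the labelled biological replicates.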

Additional observations from a re-analysis of the deposited data

Results flagged for a closer look

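Reads on the strand opposite to the gene were outside the comparisons and were found at 3 members that overlap a gene on the other strand. *bHLH38*, which overlaps AT3G56960, had a median of 10.5 such reads per leaf library and 8 per root library. *bHLH101*, which overlaps AT5G04140, had a median of 89.5 per leaf library (79 to 116) and at most 1 per root library. *F6'H1*, which overlaps AT3G13620, had a median of 30.5 per leaf library and 69.5 per root library. The strand of the library was counted, so these reads are not in the levels given for the 3 genes.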

How the results depend on the processing

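In roots, 7 members were called under DESeq2, the likelihood ratio test, RLE normalization, no filter and both strands together, and 6 to 7 with 1 library left out, when *FIT* ranged from -0.020 to 0.302. Fits with 1 root library left out called 3795 to 4340 of all genes. In the fit of all 12 libraries 0 members were called, and 2445 genes in place of 5233. In leaves, 0 to 1 members were called with 1 library left out, 2 without both doubtful libraries and 8 when these were tested with no filter. Genes called in leaves numbered 2041, against 3742 with DESeq2, 5306 in the fit of all 12 libraries, 12 to 2219 with 1 library left out, and 5140 or, with no filter, 6137 without the doubtful libraries. With 1 leaf library left out, *bHLH39* ranged from -0.028 to 1.020 and *F6'H1* from -0.024 to 1.292. Between organs, 2 to 6 members were called in WT and 2 to 5 in *pi4kß1ß2* with 1 library left out. These fits called 12714 to 14810 genes in WT and 13980 to 15363 in *pi4kß1ß2*, in either direction. In them *bHLH39* (-0.717 to 2.633) and *CYP82C4* (-1.010 to 2.921) changed sign in WT and *bHLH38* (-0.009 to 1.001) in *pi4kß1ß2*. In the interaction, 0 members were called whichever library was left out, when *bHLH38* ranged from -0.146 to 2.457, *bHLH39* from -1.379 to 1.970, *bHLH100* from -1.976 to 1.693, *FIT* from -0.498 to 0.060, *IRT1* from -2.426 to 2.091, *FRO2* from -0.451 to 1.642, *F6'H1* from -0.803 to 0.498 and *CYP82C4* from -1.176 to 2.755. Without both doubtful libraries 5 were called, and the values were -0.707 for *bHLH38*, -1.905 for *bHLH39*, -2.287 for *bHLH100*, -2.966 for *IRT1*, -0.931 for *FRO2*, -1.086 for *F6'H1* and -1.724 for *CYP82C4*. Interaction fits with 1 library left out called 3276 to 5578 of all genes. The causes were not tested. The depth limits *S8H*, with at most 4 reads per library, and *bHLH101* in roots.

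Libraries with the same replicate number deviated together with r = -0.004, 0.335 and 0.594 in roots and 0.385, 0.668 and 0.096 in leaves, so the numbers were not taken as pairs. With the replicate block, 7 members were called in roots, 0 in leaves, 2 between WT organs, 5 between *pi4kß1ß2* organs and 0 in the interaction. The organ fits without the block called 36.3% (WT) and 39.3% (*pi4kß1ß2*) of all genes higher in roots. The organ counts are thus not read as a result about the members. With the block, *bHLH39* (0.936) and *CYP82C4* (0.861) changed sign between WT organs.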

Other observations

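Further iron genes separated the leaf libraries as *IRT1* did. These genes were named after their values had been seen. *BTSL1*, an E3 ligase gene, stood at 2.20, 14.1 and 1.93 CPM under the WT label and at 2.79, 13.7 and 13.6 CPM under the *pi4kß1ß2* label. The IRONMAN gene *IMA1* was at 2.59, 16.5 and 1.81 CPM against 1.66, 8.48 and 7.40 CPM, so that the library labelled WT leaf 2 was the highest of the 6. The ferritin gene *FER4* had the opposite order, with 110.1, 68.0 and 113.5 CPM against 99.2, 60.3 and 68.9 CPM. As labelled, none of the 3 was called by edgeR (adjusted p = 0.678 for *BTSL1*, 0.882 for *IMA1* and 0.399 for *FER4*). Without the 2 libraries of doubtful label and with no filter, *BTSL1* was at 2.7 ± 0.15 (SE, edgeR adjusted p = 1.35e-06), *IMA1* at 1.83 ± 0.20 (adjusted p = 0.000104) and *FER4* at -0.81 ± 0.08 (adjusted p = 6.93e-05) on the log2 scale, with 2 libraries per label. Since the genes were picked for this split, these p-values are no test of it. *IMA3* was not separated in this way, with 28.1, 52.0 and 14.3 CPM against 3.13, 21.7 and 19.1 CPM.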
